A study of Homo sapiens with 12 samples.

Results

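Oxidative phosphorylation was followed through 94 genes that code for subunits of its 5 protein complexes, 81 in the nucleus and 13 in the mitochondrial DNA. They were taken from the 62700 genes of the count table by symbol: the mitochondrial genes of complexes I, III, IV and V, and the NDUF, SDH, UQCR, COX and ATP5 subunit names. Names of pseudogenes (174) and hyphenated read-through or antisense names (8) were dropped, and a mean of 10 counts over the libraries was required. The 6 genes below that mean were COX4I2, COX6A2, COX7A1, COX7B2, COX8C and ATP5MGL, mostly isoforms of other tissues. MT-ATP6 and MT-ATP8 end in P and a digit like a pseudogene, and were kept because they are the mitochondrial ATP synthase genes; without them the list has 92 genes. NDUFAB1, CYC1 and the carrier CYCS do not carry the names used and are not members.

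The cells were HCT116 TIM-mAID, a human colorectal carcinoma line whose TIMELESS gene was edited to carry a mini auxin-inducible degron, so every group holds the tagged TIMELESS. Treatments of 40 h were compared in 3 biological replicates each: 1 µM 5-Ph-IAA with 1 µM ceralasertib (5-Ph-IAA/ATRi, here also the combination), 1 µM ceralasertib alone (ATRi), 1 µM 5-Ph-IAA alone, and the solvent DMSO. 5-Ph-IAA is an auxin analogue that sends the tagged TIMELESS protein, a part of the fork protection complex, to degradation, and ceralasertib inhibits the checkpoint kinase ATR. 5-Ph-IAA acts on the TIMELESS protein, so the TIMELESS transcript does not check the treatment; it had 17.6, 24.5 and 24.5 CPM in the combination, 30.3, 32.3 and 46.9 CPM with ATRi, 39.6, 41.4 and 63.0 CPM with 5-Ph-IAA, and 52.2, 30.5 and 67.9 CPM with DMSO.

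In respiration, complexes I and II pass electrons from NADH and succinate to coenzyme Q, complex III passes them on to cytochrome c, and complex IV to oxygen. Complexes I, III and IV pump protons out of the matrix, and complex V, the ATP synthase, uses their return to make ATP. Complex II is coded entirely in the nucleus, while the others mix nuclear subunits with a few core subunits made from mitochondrial DNA, which a separate polymerase transcribes as long precursors.

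Library totals ran from 27695914 to 34704725 estimated counts. Of 8 colorectal epithelial markers, EPCAM, KRT8, KRT18, KRT19 and CDH1 had at least 1764 counts in every library, while CDH17, VIL1 and CEACAM5 had at most 19. Their summed level was 9874 to 11295 CPM in the combination, 5823 to 6269 CPM with ATRi, 4832 to 6406 CPM with 5-Ph-IAA and 4412 to 6039 CPM with DMSO. The 12 markers of other cell types summed to 107.3 to 130.0 CPM in the combination, 78.0 to 113.0 CPM with ATRi, 65.5 to 124.7 CPM with 5-Ph-IAA and 55.1 to 123.3 CPM with DMSO. Among those 12, PTPRC, DCN, PECAM1, GFAP and HBB, which define leukocytes, fibroblasts, endothelium, astrocytes and red cells, had at most 6 counts in any library. COL3A1, a fibroblast collagen, had at most 10 counts. The collagen COL1A1 had 1173 to 3002 counts, and VWF, an endothelial marker, 11 to 46. The rest were also present in every library, CD68 with 188 to 1022 counts, ACTA2 with 206 to 855, DES with 68 to 135 and ALB with 7 to 73. CD68 and ACTA2 rose in the combination against DMSO, by 1.94 ± 0.30 and 1.91 ± 0.21 on the log2 scale (edgeR adjusted p = 0.00178 and 0.00023); their part in the results on respiration was not tested. In bulk RNA, fewer cells of a kind and less RNA per cell cannot be told apart.

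Nuclear respiratory chain transcripts changed by less than the typical gene, and the mitochondrial mRNAs did not. In the combination against DMSO, 3 of 94 members passed the threshold (edgeR's quasi-likelihood test, Benjamini-Hochberg adjusted p under 0.05 over all 18049 genes tested), 2 higher and 1 lower, against 13.1% of all genes tested (6.24% higher, 6.89% lower). All 3 were nuclear: NDUFV3 and NDUFA4 rose and NDUFA4L2 fell. The log2 fold change lay between -0.5 and 0.5 for 78 of 81 nuclear members and 9 of 13 mitochondrial mRNAs, against 68.6% of all genes. Its median size was 0.15 for nuclear members, 0.44 for mitochondrial mRNAs and 0.31 for all genes. The 95% interval of the change lay within 2-fold for 78 of 81 nuclear members but for only 1 of 13 mitochondrial mRNAs, whose libraries scattered more within groups. The median within-group SD of the log2 level was 0.25 for nuclear members, 0.52 for mitochondrial mRNAs and 0.30 for all genes. Genes of like abundance were not compared, so a smaller change is not separated from a smaller scatter.

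In the main edgeR fit, which ignores set numbers, the other comparisons called no member. In the combination against ATRi edgeR called 0 of 94 (3.51% of all genes; 4 members had an unadjusted p under 0.05 and DESeq2 called 1, NDUFV3). Against 5-Ph-IAA alone edgeR called 0 (9.41% of all genes; 7 members had an unadjusted p under 0.05 and DESeq2 called 4, COX6B2, COX8A, NDUFA4L2 and NDUFV3). In that comparison libraries of the same set deviated together, which is why it was chosen for a set block after the data were seen. The block was fitted over all 12 libraries, those of DMSO and ATRi included. With the set as a block edgeR called 5 members and 19.6% of all genes. NDUFV3 was higher in the combination (0.43 ± 0.10), and NDUFA4L2 (-1.84 ± 0.46), COX6B2 (-1.08 ± 0.27), COX8A (-0.49 ± 0.12) and NDUFS4 (-0.31 ± 0.09) were lower, with edgeR adjusted p from 0.0128 to 0.0403. ATRi against DMSO gave 0 calls by edgeR and by DESeq2 (0.0665% of all genes by edgeR), and 0 members had an unadjusted p under 0.05. 5-Ph-IAA against DMSO gave 0 by both tools (0.00554% of all genes by edgeR), also with 0 at an unadjusted p under 0.05. In the interaction, the part of the combined response beyond both single log2 changes added up, edgeR and DESeq2 called 0 members (0.0776% of all genes by edgeR). There 1 member had an unadjusted p under 0.05, NDUFA9 (-0.45 ± 0.19, edgeR adjusted p = 0.637), followed by COX8A (-0.48 ± 0.23) and NDUFV3 (0.38 ± 0.18).

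**Figure D1:**
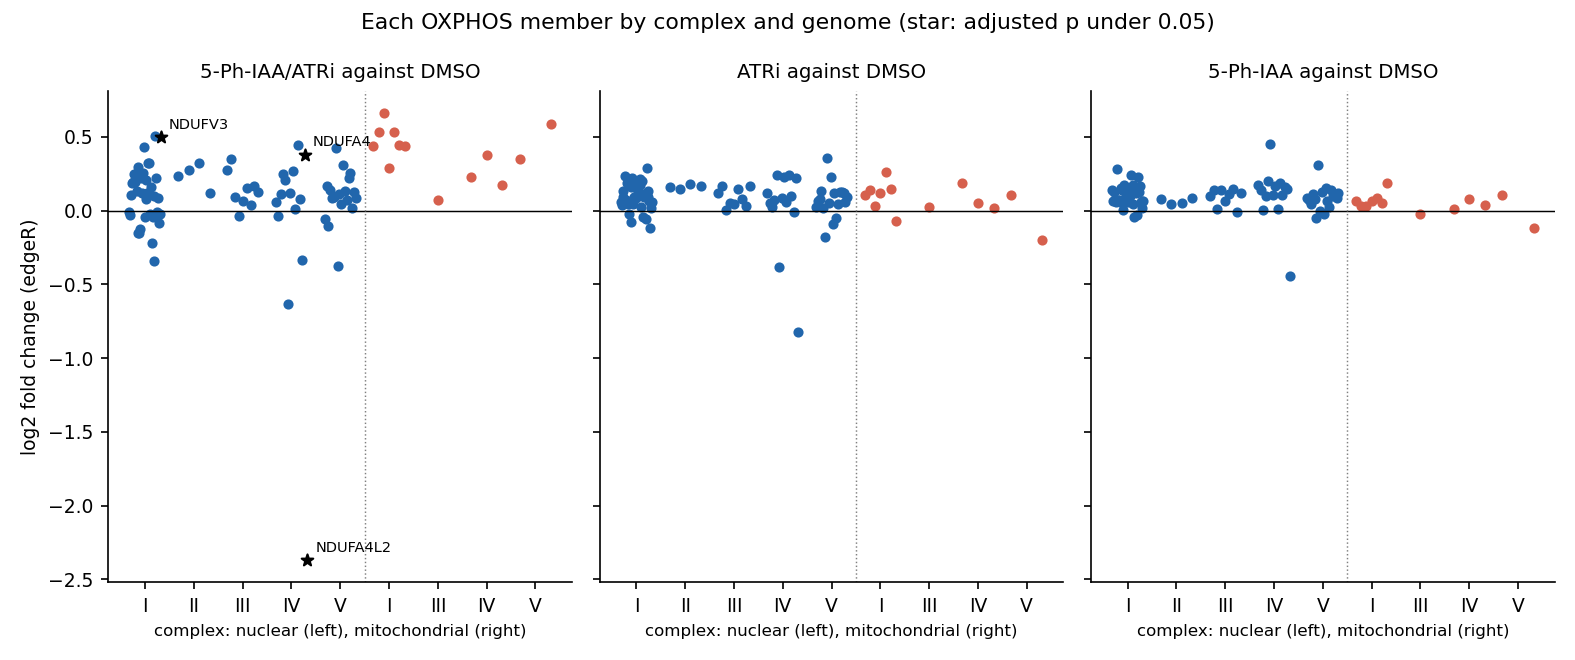
The log2 fold change (vertical axis, edgeR) of each of the 94 members is plotted by complex, with nuclear members in blue left of the dotted line and mitochondrial mRNAs in red right of it, for 3 comparisons. Stars mark an adjusted p under 0.05; NDUFV3, NDUFA4 and NDUFA4L2 carry them in the combination against DMSO, and no member does in the single treatments.

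The largest change was in NDUFA4L2 (chromosome 12, 57234903 to 57240762, build GRCh38.p14), a hypoxia-inducible relative of the complex IV subunit NDUFA4 that lowers complex I activity. It had 0.429, 0.436 and 0.2485 CPM in the combination, 1.43, 0.855 and 0.987 CPM with ATRi, 1.67, 2.08 and 0.523 CPM with 5-Ph-IAA, and 1.36, 3.38 and 1.08 CPM with DMSO. Every combination library lay below every library of the other groups, and the transcript was scarce throughout, with a mean of 37.7 counts. Against DMSO the combination gave a log2 fold change of -2.37 ± 0.58 (95% interval -3.64 to -1.1, edgeR adjusted p = 0.0206). It was -1.92 ± 0.58 against 5-Ph-IAA (edgeR adjusted p = 0.062, and 0.0187 with the set as a block) and -1.55 ± 0.58 against ATRi (edgeR adjusted p = 0.194). The high value of DMSO 2 weighed on it: without that library the change from DMSO was -1.71 (edgeR adjusted p = 0.0586). Without combination replicate 1, 2 or 3 it was -2.49, -2.50 and -2.15, with edgeR adjusted p of 0.0627, 0.0628 and 0.0862.

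Its paralogue NDUFA4 (chromosome 7, 10931943 to 10940153), a subunit of complex IV first assigned to complex I, moved the other way. It had 87.0, 101.4 and 85.3 CPM in the combination, 84.7, 79.9 and 80.5 CPM with ATRi, 76.7, 80.1 and 76.0 CPM with 5-Ph-IAA, and 74.7, 63.0 and 72.9 CPM with DMSO. The combination libraries were above all others, and the groups ranked combination, ATRi, 5-Ph-IAA, DMSO by their means, with ATRi and 5-Ph-IAA overlapping by 1 library each. NDUFA4 rose by 0.38 ± 0.11 against DMSO (edgeR adjusted p = 0.0435). That call was lost on leaving out any of the 6 libraries compared, with changes of 0.29 to 0.42 and edgeR adjusted p from 0.0738 to 0.174.

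NDUFV3 (chromosome 21, 42893309 to 42913299), an accessory subunit of the NADH-binding arm of complex I, was the only complex I subunit called. It had 55.8, 66.5 and 55.8 CPM in the combination, 48.5, 42.4 and 40.2 CPM with ATRi, 46.4, 45.8 and 39.6 CPM with 5-Ph-IAA, and 41.4, 46.7 and 37.9 CPM with DMSO. The lowest combination library was above the highest of the other 9, while the other 3 groups overlapped each other. It rose by 0.50 ± 0.13 against DMSO (edgeR adjusted p = 0.0273), and its change was 0.44 ± 0.13 against ATRi (edgeR adjusted p = 0.0929) and 0.43 ± 0.13 against 5-Ph-IAA (edgeR adjusted p = 0.0595, and 0.0128 with the set as a block). The call against DMSO was lost without DMSO 1 or DMSO 3, or without any combination library (log2 fold changes of 0.41 to 0.54, edgeR adjusted p from 0.0556 to 0.113).

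NDUFB3, an accessory subunit of the complex I membrane arm, came next and did not pass. It had 55.4, 62.5 and 53.0 CPM in the combination, 54.8, 41.97 and 45.5 CPM with ATRi, 51.5, 42.6 and 42.3 CPM with 5-Ph-IAA, and 48.6, 37.0 and 41.4 CPM with DMSO. The combination libraries lay above those of DMSO and overlapped with ATRi 1, and the change from DMSO was 0.43 ± 0.15 (edgeR adjusted p = 0.0807; DESeq2 called it).

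**Figure D2:**
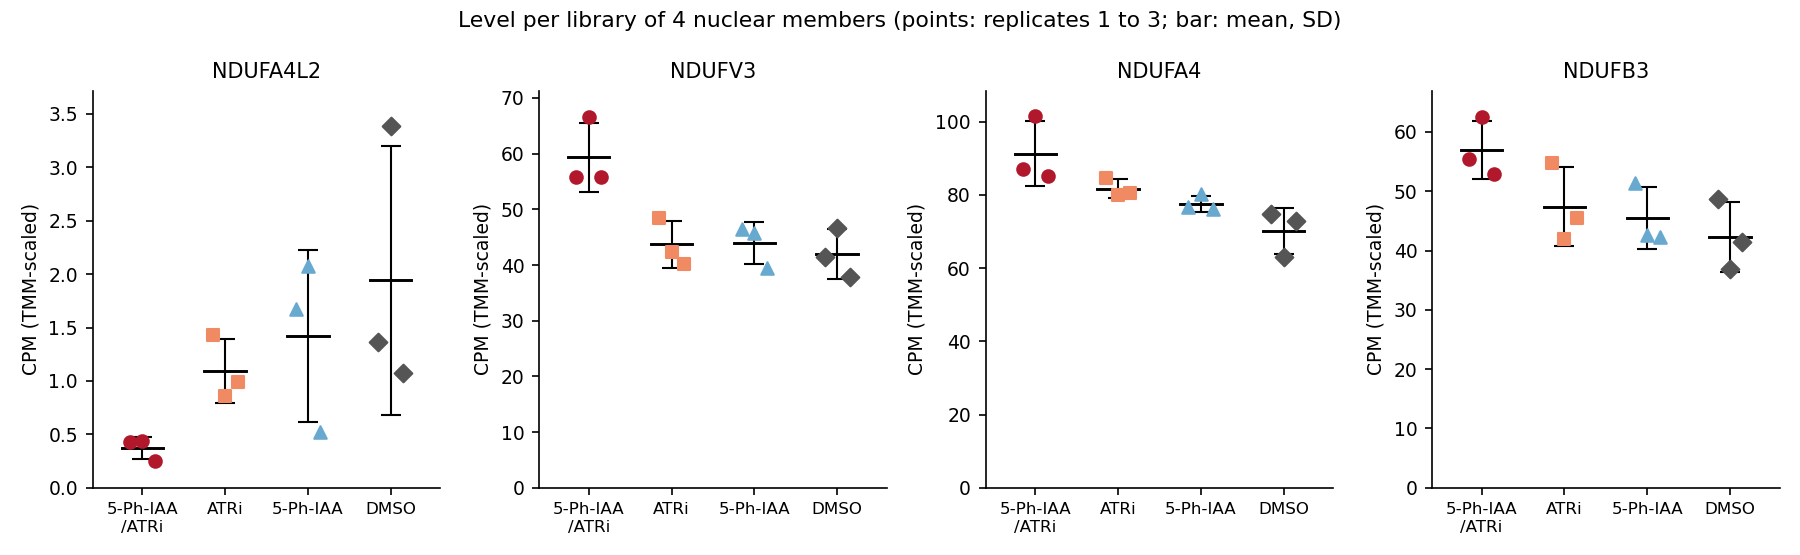
Levels in TMM-scaled CPM (vertical axes, starting at 0) of NDUFA4L2, NDUFV3, NDUFA4 and NDUFB3 are shown per library for the 4 groups, with points for replicates 1 to 3 and bars for the mean and SD. The 3 combination libraries are the lowest of all 12 for NDUFA4L2 and the highest of all 12 for NDUFV3 and NDUFA4.

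Promoters of nuclear subunit genes are known for binding NRF1, ETS factors such as GABPA, and YY1. RefSeq windows of 300 bases (250 before to 50 after the start, GRCh38.p14) were found for 68 of 81 nuclear members. The NRF1 motif (GCGCA, any base, then GCGC) was in 16 of 68 (23.5%), against 6.28% of 27305 windows of all genes. The ETS motif CCGGAAG was in 20 (29.4%), against 10.7% of all windows, and the YY1 motif ATGGCGG in 19 (27.9%), against 5.72%. Both strands were searched, and 42 of 68 windows (61.8%) held at least 1 of these 3 motifs, against 19.5% of all windows. No test was made, and a match is not shown to be a bound site. The 27305 windows of all genes were not matched to the members in expression or base content. The excess is thus not shown to be particular to respiration genes. The letters ACGTG, a form of the core of hypoxia response elements, were searched after the fall of NDUFA4L2 was seen. They were in 17 of 68 windows (25%), against 21.6% of all windows. The form GCGTG was not searched.

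The windows of 3 genes are printed 5′ to 3′, that of SDHD, as an example that holds all 3 kinds of motif, and those of the called genes NDUFV3 and NDUFA4L2. Capitals mark matches on either strand of NRF1, ETS, YY1 or ACGTG. SDHD lies on the plus strand at chr11:112086623-112086922, NDUFV3 on the plus strand at chr21:42893059-42893358, and NDUFA4L2 on the minus strand at chr12:57240713-57241012. The SDHD window holds YY1, NRF1, ETS and YY1 matches in that order, and that of NDUFV3 holds ACGTG and then YY1. That of NDUFA4L2 holds none of the 4, and neither does that of NDUFA4, which says only that those letters are absent there. The letters GCGTG, left unmarked because they were not searched, do occur in the NDUFA4L2 and NDUFV3 windows.
SDHD: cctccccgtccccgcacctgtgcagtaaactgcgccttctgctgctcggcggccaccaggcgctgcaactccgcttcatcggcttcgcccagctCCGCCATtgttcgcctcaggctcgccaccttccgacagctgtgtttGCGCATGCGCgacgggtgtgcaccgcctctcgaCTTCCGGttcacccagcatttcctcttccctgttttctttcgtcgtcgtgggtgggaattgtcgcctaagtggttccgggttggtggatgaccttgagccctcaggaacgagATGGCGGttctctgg
NDUFV3: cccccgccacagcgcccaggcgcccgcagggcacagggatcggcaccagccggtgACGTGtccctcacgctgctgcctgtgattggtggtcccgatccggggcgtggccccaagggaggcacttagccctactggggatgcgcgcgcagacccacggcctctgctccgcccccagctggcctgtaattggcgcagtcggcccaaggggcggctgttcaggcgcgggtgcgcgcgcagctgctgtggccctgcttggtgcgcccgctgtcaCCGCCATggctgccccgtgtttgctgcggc
NDUFA4L2: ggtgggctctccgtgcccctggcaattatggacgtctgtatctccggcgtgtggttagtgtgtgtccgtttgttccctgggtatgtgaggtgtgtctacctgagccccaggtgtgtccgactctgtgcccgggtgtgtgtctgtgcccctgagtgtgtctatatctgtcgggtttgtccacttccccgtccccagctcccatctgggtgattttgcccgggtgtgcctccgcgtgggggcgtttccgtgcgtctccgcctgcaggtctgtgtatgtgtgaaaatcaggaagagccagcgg

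The mitochondrial mRNAs other than MT-ND6 were more abundant per kilobase of coding sequence than any nuclear member, of which COX7C was the highest at 1343 CPM per kilobase in the combination and 1270 with DMSO. MT-ND6 had 273.5 CPM per kilobase in the combination, 192.4 with ATRi, 229.0 with 5-Ph-IAA and 201.5 with DMSO, close to the nuclear medians. Per kilobase of coding sequence, their median level was 5745 CPM in the combination, 4212 CPM with ATRi, 3907 CPM with 5-Ph-IAA and 3830 CPM with DMSO, against nuclear medians of 250.7, 252.7, 248.5 and 231.9 CPM in the same order of groups. Nuclear levels leave out the untranslated parts of the length, which makes them look higher than per transcript length. MT-CO1, the catalytic core of complex IV, stood at 17912 CPM per kilobase in the combination and 15272 with DMSO, the highest of the 94 genes. COX4I1, the regulatory subunit of complex IV used in most tissues, had 766.9 CPM per kilobase in the combination and 736.5 with DMSO. NDUFA4L2 and COX6B2, a testis form of COX6B1, were the least abundant members in both, at 1.42 and 2.26 CPM per kilobase in the combination and 7.44 and 3.52 with DMSO.

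Summed over the 13 mRNAs, the mitochondrial share of all counts was 11.4%, 9.69% and 8.48% in the combination, 11.1%, 9.30% and 5.87% with ATRi, 11.5%, 8.40% and 5.51% with 5-Ph-IAA, and 6.56%, 12.3% and 5.39% with DMSO. The highest and the lowest library of all 12 were both DMSO libraries, and all groups overlapped. The 81 nuclear members held 1.0596%, 1.15% and 0.948% in the combination, 1.15%, 0.983% and 1.01% with ATRi, 1.16%, 1.07% and 0.972% with 5-Ph-IAA, and 1.03%, 0.985% and 0.961% with DMSO. These shares spanned a far narrower range than the mitochondrial ones and overlapped between groups too.

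The log2 ratio of mitochondrial to nuclear counts averaged 3.22 ± 0.19 in the combination, 3.01 ± 0.41 with ATRi, 2.93 ± 0.40 with 5-Ph-IAA and 2.93 ± 0.62 with DMSO (SD, n = 3). The combination minus DMSO was 0.28 (2-sided exact permutation test, p = 0.5; the smallest p that 3 against 3 allows is 0.1). Over all libraries, the ratio with ATRi present minus absent was 0.19 (exact permutation within 5-Ph-IAA levels, p = 0.45), and with 5-Ph-IAA present minus absent 0.10 (exact permutation within ATRi levels, p = 0.695). None of the 21 tests of ratio and shares passed, the smallest exact p being 0.3 and all adjusted p at least 0.919. DMSO 2 sets much of that spread. Without it the combination exceeded DMSO by 0.64 in the log2 ratio and by 3.88 points in the mitochondrial share. With 3 against 2 libraries that is an exact permutation p of 0.1 for each, the smallest possible. Leaving out DMSO 3 instead shrank the excess to 0.06 in the log2 ratio and 0.42 points in the share.

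**Figure D3:**
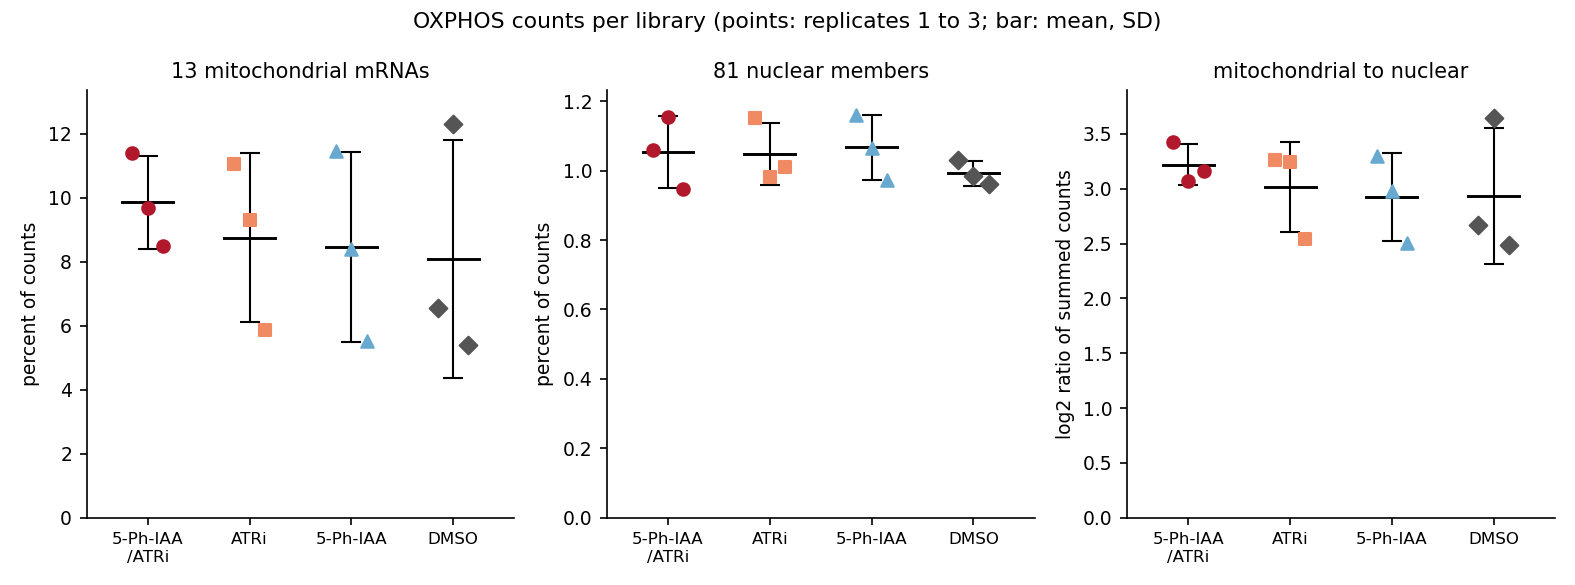
The share of counts in the 13 mitochondrial mRNAs (left), the share in the 81 nuclear members (middle) and the log2 ratio of both sums (right) are plotted per library for the 4 groups, with the mean and SD as bars and all axes starting at 0. DMSO holds both the highest mitochondrial share, 12.3%, and the lowest, 5.39%, and nuclear shares stay between 0.948% and 1.16%.

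Taken singly, all 13 mitochondrial mRNAs had a positive log2 fold change in the combination against DMSO, with a median of 0.44 against 0.12 for nuclear members and -0.02 for all genes, and none passed the test. Single libraries moved these medians: the mitochondrial one was 0.83 without DMSO 2, 0.17 without DMSO 3 and 0.27 without DMSO 1. The nuclear one was 0.20 without DMSO 2 or combination replicate 3, and 0.02 without DMSO 3 or combination replicate 2. They are cut from shared precursors and moved with the same libraries, so their common sign is not 13 separate observations. Groups did not overlap for 16 of 94 members, 14 higher and 2 lower, against 32.3% of all genes (16.4% higher, 15.9% lower), and none of these 16 was mitochondrial.

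The mRNAs of complex I core subunits ranged from 0.29 (MT-ND4) to 0.66 (MT-ND3) in that comparison. MT-ND3, a subunit at the hinge of complex I, had 1636, 1577 and 1159 CPM in the combination, 1371, 865.0 and 593.3 CPM with ATRi, 1340, 950.5 and 537.6 CPM with 5-Ph-IAA, and 680.6, 1586 and 495.8 CPM with DMSO. DMSO 2 matched the combination libraries, and the interval of the change, 0.66 ± 0.45, ran from -0.33 to 1.65 (edgeR adjusted p = 0.394). MT-ND2 (0.53 ± 0.39), MT-ND4L (0.53 ± 0.28), MT-ND5 (0.44 ± 0.33), MT-ND1 (0.44 ± 0.38) and MT-ND6 (0.44 ± 0.32) had edgeR adjusted p from 0.244 to 0.522, and MT-ND4 0.29 ± 0.42 (edgeR adjusted p = 0.722). MT-ND6, the only one of them on the light strand, was the least abundant mitochondrial mRNA, at 143.6 CPM in the combination and 105.8 CPM with DMSO. It is known for lacking a long poly(A) tail, and these libraries were made by poly(A) selection. The part of that selection in its low level was not tested.

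MT-CYB, the cytochrome b of complex III, had 0.07 ± 0.36 (edgeR adjusted p = 0.932), the smallest change of the 13. The complex IV core subunits MT-CO1, MT-CO2 and MT-CO3 had 0.23 ± 0.36, 0.38 ± 0.43 and 0.17 ± 0.41 (edgeR adjusted p from 0.641 to 0.844). MT-ATP6, part of the proton channel of complex V, had 0.35 ± 0.37 (edgeR adjusted p = 0.612). MT-ATP8, whose reading frame overlaps that of MT-ATP6, had 970.5, 1303 and 1242 CPM in the combination, 854.5, 621.5 and 558.8 CPM with ATRi, 972.1, 726.0 and 454.7 CPM with 5-Ph-IAA, and 699.0, 1114 and 524.8 CPM with DMSO. Combination replicates 2 and 3 were the highest of all 12 libraries, and replicate 1 lay within the DMSO range. Its change was 0.59 ± 0.31 against DMSO (edgeR adjusted p = 0.26) and 0.79 ± 0.31 against ATRi (edgeR adjusted p = 0.224). Reads in the overlaps of MT-ATP8 with MT-ATP6 and of MT-ND4L with MT-ND4, and in 404 nuclear copies of mitochondrial genes that held 0.0699% to 0.175% of counts, were divided by the authors' estimation, so the level of each of these genes is uncertain.

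Within the 13 mRNAs, the part of MT-CO1 was steadier in proportion than the sum. MT-CO1 made up 27.6% ± 1.75 of the counts of the 13 in the combination and 29.2% ± 1.29 with DMSO (SD, n = 3). Not every mRNA was steadier. In the combination MT-ATP8 made up 1.20% ± 0.318 of these counts, while the sum held 9.85% ± 1.46 of all counts (SD, n = 3). MT-ND2 made up 5.65%, 5.29% and 6.48% in the combination, 5.07%, 4.81% and 5.07% with ATRi, 4.87%, 4.77% and 4.93% with 5-Ph-IAA, and 4.63%, 5.09% and 4.65% with DMSO. All combination libraries were above the other 9, and the exact permutation p of combination against DMSO was 0.1, the smallest possible; MT-ND3 separated likewise, at 1.46% ± 0.125 in the combination and 1.08% ± 0.136 with DMSO (exact permutation p = 0.1, n = 3 each). MT-CYB made up 7.33% ± 0.596 in the combination and 8.43% ± 0.899 with DMSO (exact permutation p = 0.2, n = 3 each). In 26 exact tests over all libraries of ATRi and of 5-Ph-IAA present against absent, MT-ND2 had an exact permutation p of 0.02 for ATRi, and no adjusted p was below 0.39.

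The 36 nuclear complex I members had a median log2 fold change of 0.12 in the combination against DMSO, 0.09 with ATRi and 0.07 with 5-Ph-IAA. The extremes beside NDUFV3 were NDUFS5, an accessory subunit, at 0.51 ± 0.24, and NDUFS4, an assembly-critical accessory subunit, at -0.34 ± 0.16 (edgeR adjusted p = 0.212 and 0.21). NDUFS1, the largest iron-sulfur subunit, had 80.7, 86.9 and 94.5 CPM in the combination, 80.7, 106.1 and 109.8 CPM with ATRi, 77.5, 96.9 and 121.0 CPM with 5-Ph-IAA, and 105.2, 81.2 and 118.9 CPM with DMSO. Its groups overlapped, and the change from DMSO was -0.22 ± 0.19 (edgeR adjusted p = 0.522). Reads of NDUFC2 may be shared with a read-through gene that contains it, so its level is uncertain.

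Complex II, succinate dehydrogenase, has no mitochondrial subunit and is also an enzyme of the tricarboxylic acid cycle. Its flavoprotein SDHA had 112.1, 128.0 and 117.9 CPM in the combination, 99.6, 107.0 and 133.0 CPM with ATRi, 97.0, 95.3 and 129.4 CPM with 5-Ph-IAA, and 120.4, 59.8 and 124.0 CPM with DMSO. DMSO 2, the library with the highest mitochondrial share, had the lowest SDHA of all 12. The changes from DMSO were 0.24 ± 0.24 for SDHA, 0.28 ± 0.13 for the iron-sulfur subunit SDHB, 0.32 ± 0.15 for the membrane anchor SDHC and 0.12 ± 0.13 for the other anchor SDHD (edgeR adjusted p from 0.203 to 0.614). SDHB and SDHC were higher in all 3 combination libraries than in any DMSO library.

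The 9 nuclear members of complex III had changes of -0.04 to 0.35 in the combination against DMSO. The core protein UQCRC1 had -0.04 ± 0.12 and the small subunit UQCR11 0.35 ± 0.17 (edgeR adjusted p = 0.893 and 0.228). UQCRHL, a retrocopy of the hinge protein UQCRH, had 0.17 ± 0.20; reads of UQCRH and UQCRHL can be confused, so both levels are uncertain.

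Of the 14 nuclear members counted with complex IV, 10 had a positive and 4 a negative change in the combination against DMSO. COX7B had the largest positive one, 0.44 ± 0.24 (edgeR adjusted p = 0.274). COX4I1 had 0.06 ± 0.22, COX6A1 0.25 ± 0.28, COX6B1 0.21 ± 0.27, COX7A2 0.26 ± 0.13 and COX7A2L, which links complexes III and IV, 0.01 ± 0.13, none past the threshold. COX8A, a small structural subunit, had 98.6, 110.5 and 79.3 CPM in the combination, 140.5, 110.9 and 110.5 CPM with ATRi, 151.4, 145.0 and 109.3 CPM with 5-Ph-IAA, and 118.9, 129.1 and 115.7 CPM with DMSO. The combination lay below DMSO in every library and overlapped with the single treatments; the change was -0.33 ± 0.17 against DMSO and -0.49 ± 0.17 against 5-Ph-IAA (edgeR adjusted p = 0.224 and 0.0916, the second being 0.0184 with the set as a block). COX6B2 had 0.787, 0.509 and 0.497 CPM in the combination and 1.71, 1.1 and 1.02 CPM with 5-Ph-IAA. These groups did not overlap, and the change of -1.08 ± 0.32 between them had an edgeR adjusted p of 0.058, and 0.0185 with the set as a block.

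The 18 nuclear members of complex V had changes of -0.38 to 0.43 in the combination against DMSO. At the ends stood ATP5MC2 (-0.38 ± 0.23) and ATP5MC1 (0.43 ± 0.22), 2 of the 3 genes that code for the identical mature subunit c of the rotor ring; the other, ATP5MC3, had 0.11 ± 0.14 (edgeR adjusted p from 0.242 to 0.683). ATP5MC2 had 122.2, 132.4 and 90.2 CPM in the combination, 187.7, 144.9 and 131.6 CPM with ATRi, 186.4, 151.2 and 109.5 CPM with 5-Ph-IAA, and 142.4, 183.5 and 122.3 CPM with DMSO. ATP5MC1 had 113.5, 102.5 and 91.0 CPM in the combination, 126.4, 81.3 and 84.7 CPM with ATRi, 126.2, 74.7 and 82.9 CPM with 5-Ph-IAA, and 79.2, 67.2 and 82.1 CPM with DMSO. ATP5MC1 separated the combination from DMSO and ATP5MC2 did not. ATP5F1B, the catalytic beta subunit, had 0.17 ± 0.24, and ATP5IF1, the inhibitor of the synthase, 0.09 ± 0.30 (edgeR adjusted p = 0.726 and 0.89). Reads of ATP5MF may be shared with a read-through gene.

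The most regular pattern in these genes lay within groups. Deviations of the mitochondrial share from its group mean were compared over the 12 libraries with the make-up of the nuclear OXPHOS counts by complex. Permutations were made within groups, with 8 relations in all. The relations by complex, and that of the mitochondrial with the nuclear share, were not among those planned. The complex IV part rose with the mitochondrial share (Pearson r = 0.939, exact permutation p = 0.00154, adjusted 0.00617; Spearman rho = 0.888, p = 0.00617, adjusted 0.017). The complex I part did likewise (r = 0.895, exact permutation p = 0.00309, adjusted 0.00617; rho = 0.874, p = 0.00849, adjusted 0.017). The complex II part fell as the mitochondrial share rose (r = -0.911, exact permutation p = 0.00231, adjusted 0.00617; rho = -0.825, p = 0.0309, adjusted 0.0494), and so did the complex V part (r = -0.924, exact permutation p = 0.00309, adjusted 0.00617; rho = -0.874, p = 0.00849, adjusted 0.017). Leaving out DMSO 2 and DMSO 3, the 2 libraries with mitochondrial shares most distant from the median, r was 0.934 for complex IV, 0.896 for complex I, -0.837 for complex II and -0.944 for complex V. Complex III had r = 0.383 (exact permutation p = 0.358, adjusted 0.358; rho = 0.476, p = 0.234, adjusted 0.267; r = 0.176 without those libraries). The 5 parts add to a whole and share the same libraries, so these are not 5 independent relations. The permutations also ignored set numbers. Set 3 had the lowest mitochondrial share in every group (8.48% in the combination, 5.87% with ATRi, 5.51% with 5-Ph-IAA and 5.39% with DMSO). The 12 deviations may thus not be independent between groups, and the p values may be too small.

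The sum of nuclear members was not shown to follow the mitochondrial share (r = 0.526, exact permutation p = 0.0941, adjusted 0.126; rho = 0.503, p = 0.129, adjusted 0.172; r = 0.716 without DMSO 2 and DMSO 3), nor the log2 ratio (r = 0.324, exact permutation p = 0.279, adjusted 0.319; rho = 0.364, p = 0.282, adjusted 0.282; r = 0.073 without DMSO 3 and 5-Ph-IAA 3). The log2 ratio rose with MALAT1, a nuclear-retained RNA (r = 0.869, exact permutation p = 0.00772, adjusted 0.0123; rho = 0.867, p = 0.00849, adjusted 0.017; r = 0.785 without DMSO 3 and 5-Ph-IAA 3). MALAT1 had 7665, 7019 and 3202 CPM in the combination, 9457, 3396 and 1632 CPM with ATRi, 7240, 4988 and 1331 CPM with 5-Ph-IAA, and 3600, 10740 and 1088 CPM with DMSO. These permutations ignored set numbers as well, so their p values may also be too small. What makes these libraries differ within a group was not tested.

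**Figure D4:**
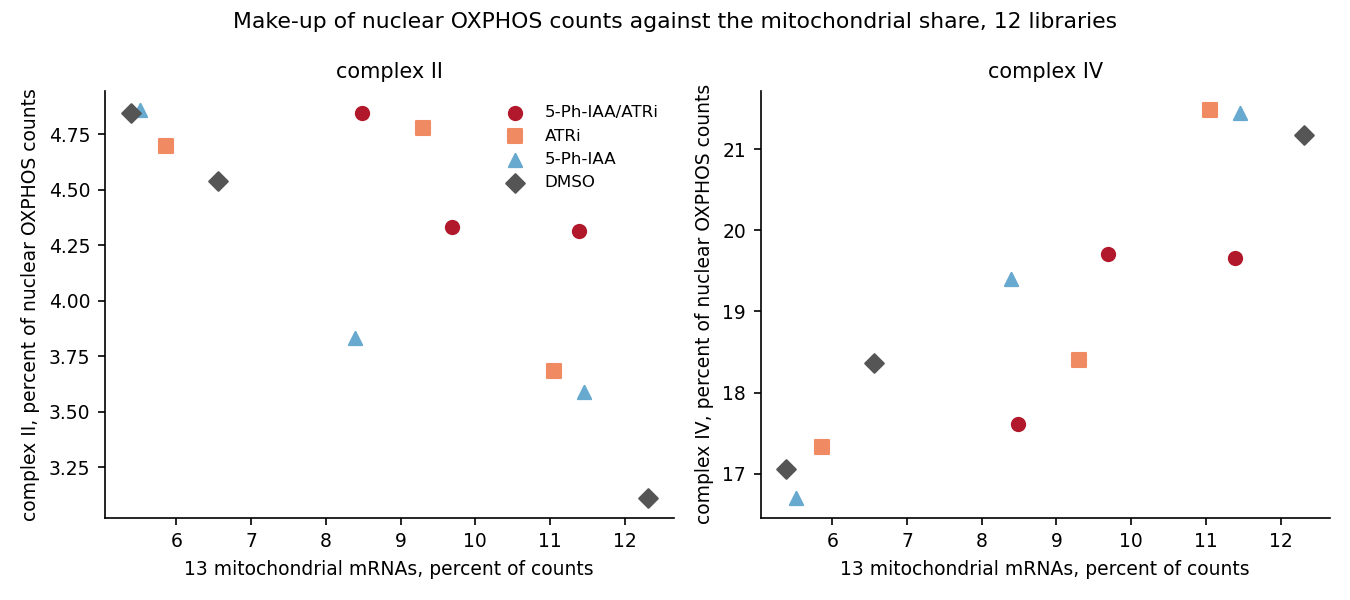
The part of nuclear OXPHOS counts held by complex II (left) and by complex IV (right), in percent, is plotted against the share of all counts held by the 13 mitochondrial mRNAs, 1 point per library and 1 colour per group. Complex II declines and complex IV climbs along the mitochondrial share, with within-group Pearson r of -0.911 and 0.939, and libraries of every group spread along both slopes.

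Gene by gene, 64 of 81 nuclear members had a positive within-group correlation with the mitochondrial share, 54 of them above 0.5, and 13 lay below -0.5. These are descriptions over the same 12 libraries, with no test. The same counts were not made over all genes, so they are not shown to be particular to these members. Among the lowest were ATP5F1A (-0.976), NDUFS1 (-0.943), ATP5F1B (-0.931), SDHC (-0.919), NDUFA9 (-0.90), UQCRFS1 (-0.899), UQCRC2 (-0.892) and SDHA (-0.889), which include the catalytic subunits of ATP synthase and succinate dehydrogenase. The highest included NDUFA13 (0.916), ATP5IF1 (0.912), NDUFC1 (0.908) and ATP5MK (0.899), all small proteins. ATP5F1A had 507.9, 517.6 and 568.7 CPM in the combination, 437.7, 545.3 and 704.7 CPM with ATRi, 417.3, 602.0 and 741.6 CPM with 5-Ph-IAA, and 581.5, 378.6 and 701.4 CPM with DMSO. In each group its order over the libraries was the reverse of that of the mitochondrial share.

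Those gene-level correlations went with coding length, in classes chosen after the values were seen. The median r was 0.782 over 53 nuclear members of under 500 coding bases, 0.786 over 18 of 500 to under 1000 bases and -0.896 over 10 of 1000 bases or more. Below 0 lay 9 of those 10 long genes and 4 of the 53 short ones, and Spearman's rho of r with coding length was -0.446 across the 81 genes, which are not independent. By complex the median r was 0.754 for I, -0.776 for II, 0.67 for III, 0.756 for IV and 0.814 for V, so that in complex V the 2 abundant long subunits ATP5F1A and ATP5F1B ran against most of their complex. Length and abundance of these genes go together with their place in the complexes, and their parts in the pattern were not tested. The relation with length was not computed for other genes.

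**Figure D5:**
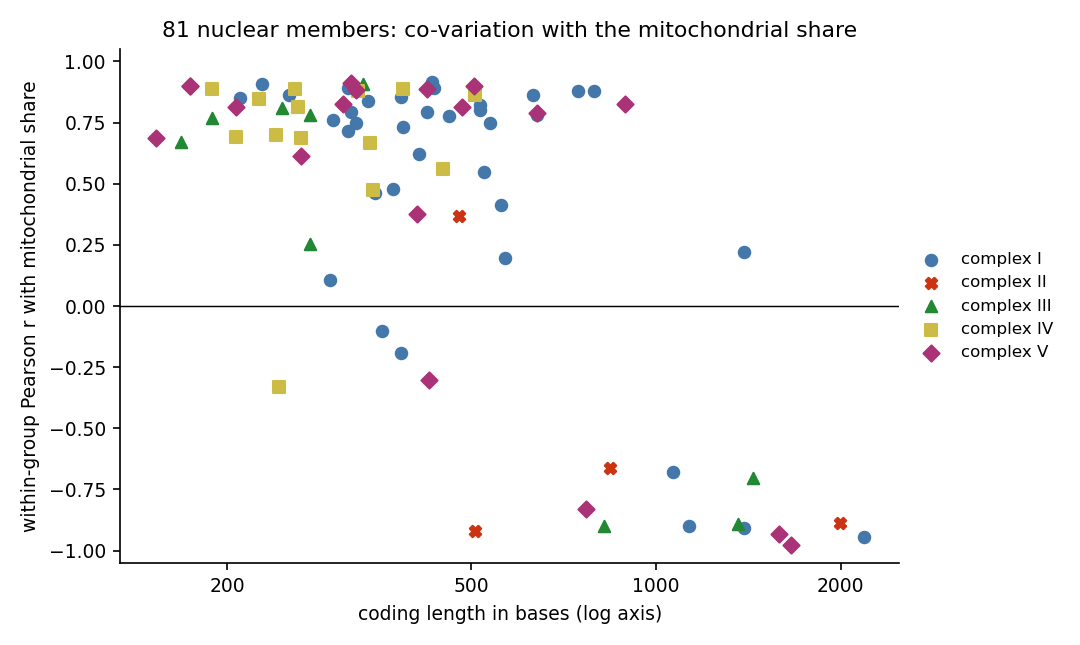
Each of the 81 nuclear members is plotted by coding length in bases (horizontal, log axis) and by the within-group Pearson correlation of its level with the mitochondrial share (vertical), with 1 colour and marker per complex. Of the 10 genes of 1000 bases or more 9 lie below 0, and 64 of all 81 lie above it.

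A further fit took as covariate the share of each library's counts in all mitochondrial genes, ribosomal RNAs included. In the combination against DMSO, this fit called 35.7% of all genes. With the covariate, edgeR called 13 of 81 nuclear members, 9 higher and 4 lower. The 3 genes called without it were among them, NDUFA4L2 at -2.64 ± 0.39, NDUFV3 at 0.43 ± 0.10 and NDUFA4 at 0.41 ± 0.10 (edgeR adjusted p = 0.000366, 0.00571 and 0.00784). The others higher were SDHC (0.47 ± 0.09), SDHA (0.53 ± 0.13), SDHB (0.36 ± 0.11), ATP5F1B (0.41 ± 0.11), ATP5PB, a stalk subunit of ATP synthase (0.33 ± 0.09), UQCRFS1, the Rieske protein of complex III (0.36 ± 0.10), and NDUFB3 (0.41 ± 0.14), with edgeR adjusted p from 0.0017 to 0.04. The others lower were ATP5MC2 (-0.57 ± 0.13), COX8A (-0.44 ± 0.13) and NDUFS4 (-0.42 ± 0.14), with edgeR adjusted p from 0.00432 to 0.0352. The covariate averaged 12.2% ± 1.63 in the combination and 9.81% ± 4.49 with DMSO (SD), so adjusting for it moves genes that vary with it. The others higher, except NDUFB3, had negative within-group r with the share of the 13 mRNAs, and the others lower had positive r. SDHA had 0.24 ± 0.24 without the covariate.

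Genes that build, feed or express the complexes were counted from lists of the pathway, in the combination against DMSO and by edgeR at an adjusted p under 0.05, to be read against 6.24% of all genes higher and 6.89% lower. Of 19 complex I assembly genes 4 rose and 1 fell: NDUFAF1 rose by 0.69 ± 0.14, NDUFAF6 by 0.51 ± 0.12, NDUFAF8 by 0.85 ± 0.23 and TMEM126A by 0.42 ± 0.13, and FOXRED1 fell to a log2 fold change of -0.52 ± 0.12 (edgeR adjusted p from 0.00642 to 0.0496). NDUFAF1 had 31.2, 31.3 and 30.9 CPM in the combination, 25.6, 22.2 and 23.5 CPM with ATRi, 24.5, 17.6 and 21.5 CPM with 5-Ph-IAA, and 20.6, 17.6 and 19.5 CPM with DMSO, so the combination stood above all other libraries. Of 4 complex II assembly genes 1 rose, SDHAF2 (0.49 ± 0.12, edgeR adjusted p = 0.0224), which attaches the flavin to SDHA. Of 9 complex III assembly genes 2 rose, UQCC1 (0.65 ± 0.10) and UQCC4 (0.52 ± 0.11), with edgeR adjusted p of 0.00208 and 0.0109. Of 27 complex IV assembly genes 2 rose, COX14 (0.54 ± 0.15) and COA4 (0.44 ± 0.13), both with an edgeR adjusted p of 0.0417; the copper chaperone SCO2, a known p53 target, had 0.39 ± 0.14 (edgeR adjusted p = 0.101) and its relative SCO1 0.16 ± 0.18 (edgeR adjusted p = 0.647).

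None of 5 ATP synthase assembly genes and none of 18 tricarboxylic acid cycle genes passed edgeR's threshold (0 and 6 had an unadjusted p under 0.05; DESeq2 was not counted for these lists). Of 27 electron carrier and coenzyme Q genes 5 rose and 2 fell. FDXR, the ferredoxin reductase and a p53 target, rose by 2.51 ± 0.12, and PRODH, a proline oxidase that feeds the chain, by 1.67 ± 0.22 (edgeR adjusted p = 1.63e-06 and 0.000766). The coenzyme Q synthesis genes COQ2 and COQ7 changed by -0.87 ± 0.13 and -0.81 ± 0.12 (edgeR adjusted p = 0.0013 and 0.00169). CYCS, cytochrome c itself, had 351.7, 402 and 373.9 CPM in the combination, 324.4, 312.8 and 290.5 CPM with ATRi, 283.5, 252.8 and 306.4 CPM with 5-Ph-IAA, and 289.9, 252.7 and 281.8 CPM with DMSO. The combination was above every other library, and CYCS rose by 0.45 ± 0.12 (edgeR adjusted p = 0.0271).

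Of 18 genes for mitochondrial DNA upkeep and transcription 2 rose and 1 fell: the helicase TWNK (0.59 ± 0.16) and the termination factor MTERF1 (0.46 ± 0.12) rose, and the primase PRIMPOL fell (-0.88 ± 0.19), with edgeR adjusted p from 0.0122 to 0.0319. The mitochondrial RNA polymerase POLRMT had 0.26 ± 0.14 and the packaging factor TFAM 0.05 ± 0.29 (edgeR adjusted p = 0.261 and 0.946). Of 23 genes for mitochondrial RNA processing and stability 1 rose, the oligonuclease REXO2 (0.37 ± 0.09, edgeR adjusted p = 0.0232), while LRPPRC, which stabilises mitochondrial mRNAs, had -0.06 ± 0.17 (edgeR adjusted p = 0.87). Of 78 mitochondrial ribosomal protein genes 6 rose and none fell, among them MRPS17 (0.53 ± 0.13) and MRPS23 (0.47 ± 0.13), with edgeR adjusted p of 0.0239 and 0.0361. Of 11 tested genes listed as regulators of mitochondrial biogenesis 2 rose, ESRRA (0.47 ± 0.10) and the very scarce TFEC (2.24 ± 0.45), with edgeR adjusted p of 0.00845 and 0.00746. A part of TFEC in biogenesis was not tested. PPARGC1A did not pass the count filter.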

How the data were processed

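Poly(A) RNA of 12 cell cultures was sequenced with a directional library kit, per the labels' protocols. The authors deposited estimated counts per gene made with Salmon 1.10.1, per the submitters' processing notes, which also name build GRCh38.p14, STAR 2.7.9a, SAMtools 1.17, cutadapt 3.4, FastQC 0.12.1 and Trim Galore 0.6.7; annotation release and strand setting: not given in the sources used here. Estimated counts divide reads among similar transcripts, and 13.6% of the deposited values were not whole. They were rounded, filtered with filterByExpr (minimum count 10, minimum total 15; 18049 genes kept), scaled by TMM and tested with edgeR 4.0.16 (R 4.3.3, limma 3.58.1) in 1 joint quasi-likelihood model (4 group means, 12 libraries), with Benjamini-Hochberg adjustment over all genes tested. The procedure was first tested on simulated data. Log2 fold changes are given ± standard error, with the median biological coefficient of variation at 0.214. The CPM are TMM-scaled. Sums and shares used unscaled counts and 2-sided exact permutation tests (Python 3.11.15, scipy 1.17.1). Positions and promoter windows are RefSeq's for GRCh38.p14 (94 of 94 members had a position), and coding lengths are the median over the principal transcripts of GENCODE v29. Replicates are biological per the design text, and the titles number 3 sets. Changes with the set as a block are given only for the combination against 5-Ph-IAA, a choice made from the data. There the correlations of deviations of same-set libraries were 0.375, 0.18 and 0.543. In the other comparisons at least 1 pair was below 0.1. The set terms were fitted over all 12 libraries at once, not for these groups alone. In that fit DMSO 1 did not go with its set (-0.081 with the combination, -0.094 with ATRi, -0.069 with 5-Ph-IAA). Members, lists and tests were chosen with earlier results of these data known. Named are the 13 mitochondrial mRNAs, the members past the threshold, the 3 highest and 3 lowest changes of the combination against DMSO (mean of 1 CPM or more), the 3 of smallest p in the interaction, fixed members (complex II, isoforms, ATP5IF1, UQCRC1, UQCRHL) and, per pathway list, at most the 4 genes of smallest adjusted p with a few fixed ones; NDUFB3, NDUFS1, NDUFS5, COX7B, TMEM126A, ATP5F1A, ATP5F1B, ATP5MC1, ATP5MC3 and UQCR11, and the genes named by their correlation or by the covariate fit, were chosen after their values were seen. Alternatives were other scalings (DESeq2 size factors, upper quartile, totals, nuclear genes only), no filter and a stricter filter (1 CPM in 3 libraries and 50 counts), DESeq2 1.42.0, limma-voom, only the groups compared, a replicate block, a mitochondrial covariate, leaving out each library and, chosen after seeing the data, the 92 members of the literal name rule.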

Additional observations from a re-analysis of the deposited data

How the results depend on the processing

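The set numbers were checked as pairs: of 18 pairs of libraries with the same set number in different groups, 13 had a correlation of deviations above 0.1 (range -0.094 to 0.756), and 10 of 12 libraries correlated best with one of their own number, which is a hint from the data. Only in the combination against 5-Ph-IAA, among the comparisons made, did all 3 pairs exceed 0.1. With the set number as a replicate block, the combination against DMSO gave 7 members called (5 higher, 2 lower), against ATRi 2 (NDUFA4L2 and NDUFV3) and against 5-Ph-IAA 5. It changed no other count of members.

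The count of 3 members for the combination against DMSO became 1 without a count filter and 1 with only the groups compared, and 13 with the mitochondrial covariate; leaving out each library gave 0 to 1. Against ATRi, 0 became 1 with DESeq2, 1 with only the groups compared and 4 with the covariate, and stayed 0 without each library. Against 5-Ph-IAA, 0 became 1 with library totals, 1 without a filter, 4 with DESeq2 and 9 with the covariate, and 0 to 2 without each library, the 2 being COX8A and NDUFA4L2 without 5-Ph-IAA 3. Both single treatments and the interaction stayed at 0 in every alternative run. The log2 ratio for 5-Ph-IAA against DMSO, -0.0069, turned to 0.0055 without the most abundant gene of each sum. NDUFA4L2 was lost by limma-voom (adjusted p = 0.0562), NDUFV3 with upper quartile factors, no filter or only the groups compared, and NDUFA4 with totals, no filter or only the groups compared. The literal rule changed no call.

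Leaving out each library, the log2 ratio ranged from 0.0611 to 0.6395 for the combination against DMSO, -0.034 to 0.329 against ATRi and 0.0791 to 0.4789 against 5-Ph-IAA, -0.1432 to 0.4351 for ATRi and -0.2304 to 0.348 for 5-Ph-IAA against DMSO, 0.0741 to 0.3633 for ATRi present and -0.0205 to 0.2762 for 5-Ph-IAA present. The mitochondrial share in points ranged from 0.4156 to 3.8784, -0.3237 to 2.2706, -0.0737 to 2.8997, -0.6972 to 2.7656, -1.1343 to 2.4798, 0.2894 to 2.0821 and -0.0107 to 1.7963 in the same order of comparisons. The nuclear share ranged from 0.0119 to 0.1152, -0.0443 to 0.059, -0.0629 to 0.0404, 0.0047 to 0.0888, 0.0273 to 0.122, -0.004 to 0.0483 and 0.0152 to 0.0669. No exact p fell below 0.1. The causes were not tested. With 3 libraries against 3, the exact test of a sum cannot go below p = 0.1 at any size of change.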
